A study of Mus musculus with 43 samples.

Results

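The genes of the mitochondrial genome were taken as every row that the deposited count table places on chromosome MT. There were 37 such genes among 56748 in all: 13 protein genes, 2 ribosomal RNA genes and 22 transfer RNA genes. They were measured in 43 RNA sequencing libraries from epididymal white adipose tissue, a visceral fat depot, of male mice. A high-fat diet (HFD) with 60% fat was given in 4 of the 5 groups. These were HFD alone (n = 10 libraries) and HFD with SZ-A, an alkaloid preparation from mulberry twig (Ramulus Mori, or Sangzhi), at 200 (n = 9), 400 (n = 8) or 600 mg/kg/day (n = 9). The fifth group received a standard diet (SD) with 10% fat (n = 7). The sources used here do not give strain, age or length of treatment. The labels call the samples of a group replicate biosamples without tying them to animals, so p-values measure the spread between libraries.

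Mitochondrial DNA is a small circle that is transcribed on both strands into long RNAs carrying many genes each. Transfer RNA genes lie between most of the other genes, and cutting the long RNAs at these tRNAs releases the messenger and ribosomal RNAs. The messengers encode core subunits of the respiratory chain and of ATP synthase, while the remaining subunits, and all of complex II, are made from nuclear genes. Among the protein genes, mt-Nd6 alone lies on the opposite strand from the rest. The libraries were made from poly(A)-selected RNA, so RNAs with no or short tails are captured poorly and a level here is the level of captured RNA.

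The sequences below show how far some of these genes can be told apart from nuclear copies or from a neighbouring gene. They were read from the GENCODE M21 transcripts for GRCm38, whose MT positions match the deposited table for all 37 genes. Chromosome 1 holds a block of nuclear copies of mitochondrial sequence. Bases in capitals in the next 4 lines differ between the mitochondrial gene and its copy, with positions counted from 1 at the first base of the mitochondrial gene. They cover mt-Co1 at MT:6381-6418, plus strand, and mt-Nd3 at MT:9459-9496, plus strand.
mt-Co1: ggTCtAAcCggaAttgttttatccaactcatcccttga
Gm29216: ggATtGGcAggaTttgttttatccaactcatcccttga
mt-Nd3: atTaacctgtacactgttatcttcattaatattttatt
Gm28438: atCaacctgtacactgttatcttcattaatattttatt
The copy Gm29216 covers mt-Co1 from base 1054 to base 1545. It differs by T1056A, C1057T, A1059G, A1060G, C1062A and A1066T and is then identical over 479 bases. Gm28438 differs from mt-Nd3 by T3C alone over 345 bases. Over their whole lengths Gm28661, Gm10925, Gm28437 and Gm10222 were identical to mt-Co2 (681 bases), mt-Atp6 (678 bases), mt-Co3 (783 bases) and mt-Nd4l (294 bases). The start of mt-Co2, MT:7013-7083 on the plus strand, shows such a stretch with nothing to tell the genes apart.
mt-Co2: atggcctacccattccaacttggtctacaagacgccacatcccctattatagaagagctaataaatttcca
Gm28661: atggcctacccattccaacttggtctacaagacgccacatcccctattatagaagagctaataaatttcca
The next pair shows the last bases of mt-Nd5 (MT:13526-13565, plus strand) and mt-Nd6 (MT:13552-13591, minus strand), each in its own 5′ to 3′ direction, with the 14 bases they share in capitals.
mt-Nd5: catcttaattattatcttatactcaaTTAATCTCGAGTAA
mt-Nd6: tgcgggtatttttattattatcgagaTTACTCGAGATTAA
The library kit kept strand, but the sources used here do not say whether the counting used it. If it did not, counts of mt-Nd6 could include RNA of the plus strand from the same place.

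Counts lay mainly on 7 of the 37 genes. The protein genes together held 97.7% of the 69227009 mitochondrial counts, the rRNA genes 2.23% and the tRNA genes 0.103%. mt-Co1, the catalytic subunit of cytochrome c oxidase (complex IV), held 40.9% of them, ahead of mt-Cytb (complex III) with 16.5%. The complex I subunits mt-Nd5, mt-Nd4, mt-Nd1 and mt-Nd2 followed with 11.1%, 9.59%, 8.82% and 8.07%, and mt-Nd6 with 2.10%. Of the 22 tRNA genes, 20 had no count in any library, which allows up to 0.00185 CPM (counts scaled to a fixed library total) over all libraries together (3 counts of 1620664231). mt-Te had 2 counts in 1 library. mt-Tp, the proline tRNA gene, had 70995 counts and was counted in all 43 libraries. It lies on the minus strand at MT:15356-15422, next to the non-coding control region from which transcription starts. At 67 bases it is shorter than the reads of 150 bases, and the RNA was poly(A)-selected. Its level, here and below, is that of captured RNA over the gene and need not be that of the tRNA. Whether longer RNAs gave its counts was not tested.
mt-Tp: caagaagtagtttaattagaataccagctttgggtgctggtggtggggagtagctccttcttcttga
A filter on low counts kept 16 of the 37 genes for testing: the 13 protein genes, both rRNA genes and mt-Tp. The 21 other tRNA genes did not pass it.

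Per kilobase of gene, median levels over the 43 libraries spanned from 10711 CPM for mt-Co1 to 1.57 CPM for mt-Atp8. mt-Cytb stood at 5763 CPM per kilobase, mt-Nd1 at 3803, mt-Nd2 at 2858, mt-Nd4 at 2594, mt-Nd5 at 2393 and mt-Nd6 at 1626. In the same unit mt-Tp stood at 594, mt-Rnr2 at 358 and mt-Rnr1 at 318. The 16S (mt-Rnr2) and 12S (mt-Rnr1) rRNAs of the mitochondrial ribosome thus ranked below 7 of the messengers in these poly(A)-selected libraries. The lowest 6 were mt-Co2 at 140, mt-Atp6 at 84.8, mt-Co3 at 73.3, mt-Nd3 at 40.3, mt-Nd4l at 23.4 and mt-Atp8 at 1.57. Of these, mt-Co2, mt-Atp6, mt-Co3, mt-Nd3 and mt-Nd4l have a near-identical full-length copy on chromosome 1. mt-Atp8 was not compared with chromosome 1, so whether it has a copy there is not known here. mt-Atp8 shares 43 bases with mt-Atp6 and had between 4 and 63 counts per library.

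The nuclear copies took counts of the same order as the low genes. Summed over libraries, mt-Atp6 had 0.860 times the count of Gm10925, mt-Co3 had 1.17 times that of Gm28437 and mt-Nd4l had 1.21 times that of Gm10222. mt-Co2 had 1.64 times the count of Gm28661, and mt-Nd3 had 3.02 times that of Gm28438. Genes with long stretches outside the copies behaved differently, with mt-Co1 at 207 times the count of Gm29216 and mt-Nd4 at 118 times that of Gm28439. The sources used here do not say how reads that match several places were counted. The absolute levels of mt-Co2, mt-Atp6, mt-Co3, mt-Nd3 and mt-Nd4l, and the order among them, are therefore uncertain. Between libraries, the count of mt-Co3 ran from 0.302 to 1.71 times that of its copy. For mt-Nd4l the range was 0.828 to 3.78 times, and for mt-Nd3 1.74 to 4.67 times. Fold changes of genes with such copies are thus uncertain as well, to a degree that was not tested.

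**Figure D1:**
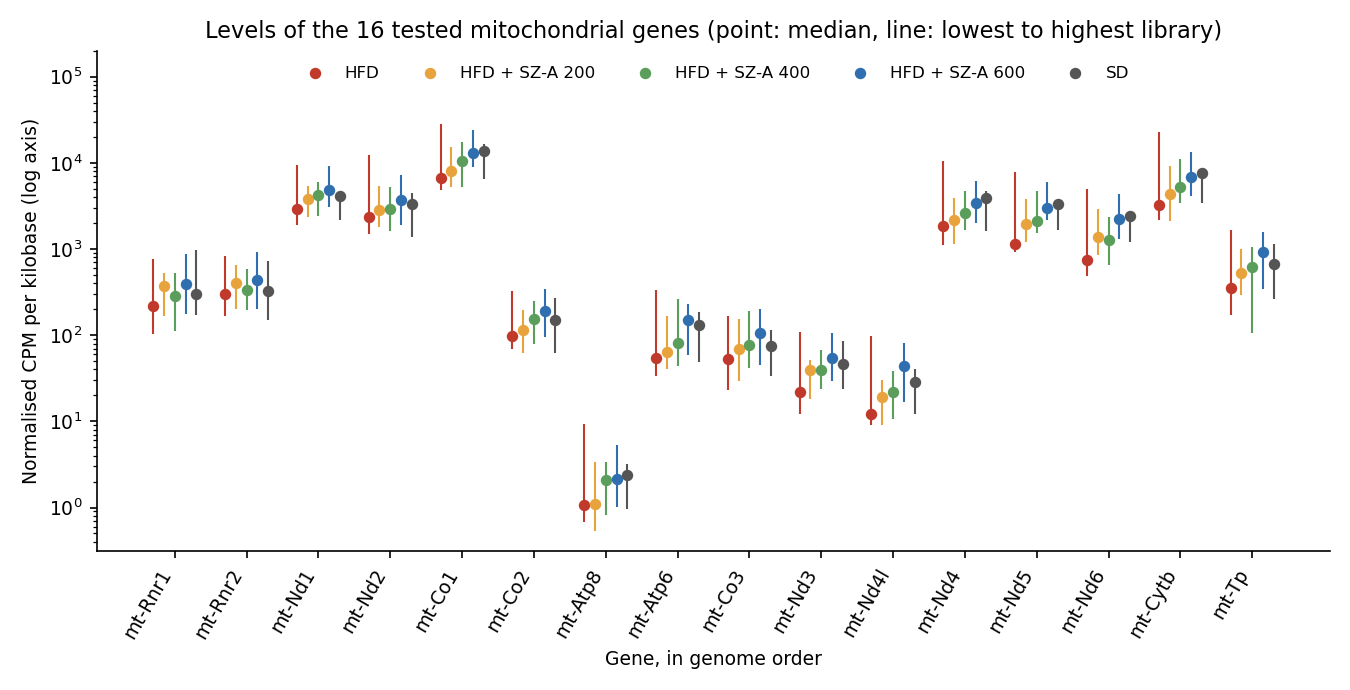
Levels of the tested mitochondrial genome genes per kilobase of gene (normalised CPM per kilobase, log axis), with groups in the order HFD, SZ-A 200, 400, 600 and SD. Points are group medians, and lines run from the lowest to the highest library of the group. mt-Co1 lies at the top and mt-Atp8 at the bottom, and the genes with a full-length nuclear copy lie near the bottom.

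The groups were compared with libraries of similar depth, between 32716294 and 44259619 counts. The share of small noncoding RNA split the libraries by a gap into set 1 (22 libraries, 0.00319 to 0.00642% of counts) and set 2 (21 libraries, 0.00992 to 0.0228%). Libraries 1 to 5 of each high-fat group and libraries 1 and 2 of SD made up set 1. The labels name no batch, and the sets were defined from the data. The main fit had no term for set. In a fit with group and set, 32.9% of all 20218 genes were higher and 25% lower in set 2. Among the mitochondrial genes, mt-Rnr2, mt-Rnr1 and mt-Co3 were lower in set 2. Their adjusted p were 0.0178, 0.0259 and 0.0317 in edgeR's quasi-likelihood test, and no other mitochondrial gene was under 0.05. Adipocyte markers were abundant, at 12483 CPM or more in summed level in every library except SZ-A 400 library 6 (3889 CPM). That library, SZ-A 400 library 3, SZ-A 600 library 6 and SD library 4 carried at least 100 genes far above the other libraries, among them epithelial genes foreign to fat, and the comparisons were repeated without them.

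The mitochondrial share of all counts was low in most HFD libraries and higher in most libraries of SZ-A 600 and SD. Among the 10 HFD libraries it was 11.4% in library 8, 4.51% in library 9, 3.83% in library 10 and between 1.92 and 2.65% in the other 7, with a median of 2.43%. Medians were 3.20% with SZ-A 200 (2.20 to 5.91%), 3.62% with SZ-A 400 (2.80 to 6.10%) and 4.62% with SZ-A 600 (3.46 to 9.10%). In SD libraries the share ran from 3.22 to 5.87% with a median of 5.06%. Of the HFD libraries, 7 of 10 lay under the lowest SD library and 1 lay over the highest. All 9 SZ-A 600 libraries lay above the HFD median, and none lay above HFD library 8. Exact (Clopper-Pearson) 95% intervals reached at most 0.0103 percentage points to either side, so counting error is small beside the spread between libraries. Such intervals and the floor given above cover counting error only. The share is a description, and no test was made on it.

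HFD shares did not overlap those of SD and SZ-A 600 in library set 1 and overlapped them in set 2. In set 1 the 5 HFD libraries ran from 1.97 to 2.65% and the 2 SD libraries were at 4.99 and 5.51%, with no overlap. The 5 SZ-A 600 libraries of set 1 ran from 4.27 to 7.60%, also above every HFD library of the set. In set 2 the 5 HFD libraries ran from 1.92 to 11.4% (median 3.83%), the 4 SZ-A 600 libraries from 3.46 to 9.10% (median 4.37%) and the 5 SD libraries from 3.22 to 5.87% (median 5.06%).

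**Figure D2:**
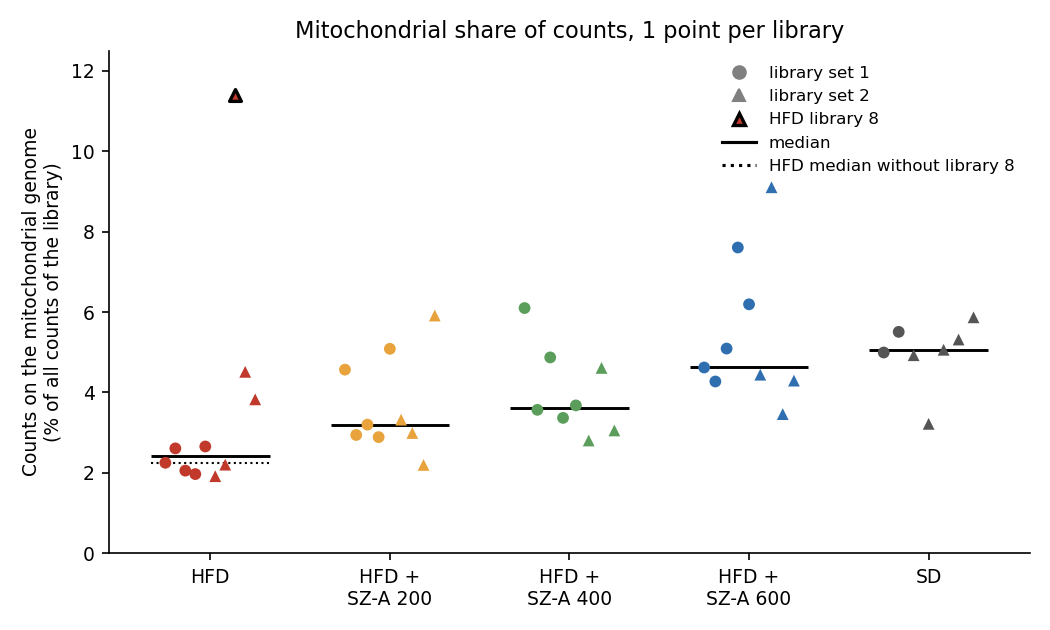
Share of all counts on the mitochondrial genome (percent) in each of the 43 libraries, by group in the order HFD, SZ-A 200, 400, 600 mg/kg/day and SD. Circles are library set 1, triangles set 2; solid lines are group medians and the dotted line is the HFD median without library 8 (2.25%). HFD library 8, with a black edge, stands at 11.4% while 7 of the 10 HFD libraries lie between 1.92 and 2.65%.

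HFD library 8 was extreme in nearly every mitochondrial gene and not to the same degree in each. Its mt-Co1 level was 44113 CPM (scaled by edgeR's TMM factors, as are all levels below), against 7487 to 17998 CPM in the other 9 HFD libraries. Its mt-Nd6 level was 2612 CPM, against 253 to 844 CPM. Each of the 16 tested genes was higher in it than in any other HFD library. Relative to the median of the other 9, the excess ran from 3.29 times for mt-Co3 and 3.32 times for mt-Nd1 to 9.00 times for mt-Nd4l and 9.27 times for mt-Atp8. It was 4.66 times for mt-Co1, 6.81 times for mt-Nd6 and 7.28 times for mt-Cytb. The makeup of its mitochondrial RNA therefore differed, with mt-Co1 at 35.0% of mitochondrial counts, the lowest share of the 43 libraries. Its log2 ratio of mt-Cytb to mt-Nd1, 1.50, was the highest of the 43.

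The same library stood at the edge of its group in cell type markers. The 12 macrophage markers summed to 922 CPM in HFD library 8, against 1217 to 12837 CPM in the other 9 HFD libraries, and the 10 adipocyte markers to 54704 CPM, against 12483 to 30503 CPM. No macrophage or adipocyte marker was at 0 in it. HFD libraries 9 and 10, next in mitochondrial share, had macrophage sums of 3529 and 1217 CPM and adipocyte sums of 30141 and 30503 CPM. The other 7 HFD libraries had 7386 to 12837 CPM for macrophage and 12483 to 18910 CPM for adipocyte markers. Across groups the macrophage sums ran from 922 to 12837 CPM in HFD, 1451 to 10795 in SZ-A 200, 401 to 11453 in SZ-A 400, 736 to 6520 in SZ-A 600 and 559 to 1942 in SD. The order was not strict: SZ-A 600 library 4 had a share of 7.60% with a macrophage sum of 5196 CPM, and SZ-A 400 library 6 a share of 2.80% with the lowest macrophage sum. The part of cell makeup in the results below was not tested. In bulk tissue, fewer cells of a type and less RNA per cell cannot be told apart.

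HFD against SD shows how the high-fat diet bears on mitochondrial RNA in this depot. mt-Nd6, the complex I subunit gene on the opposite strand, was the single mitochondrial gene that passed the test, and it was lower in HFD. mt-Nd6 had 253 CPM in the lowest, 387 CPM in the median and 2612 CPM in the highest HFD library, against 625, 1255 and 1449 CPM in SD. All HFD libraries but 8 and 9 lay below the lowest SD library. Its log2 fold change was -0.89 ± 0.36 (SE), with an adjusted p of 0.0498 in edgeR's quasi-likelihood test. Of the 16 genes tested, 1 was lower and 0 were higher, while over all 20218 genes tested 13.3% were lower and 18.4% higher at the same threshold of adjusted p 0.05. The mitochondrial genes varied together across libraries, as given below. Counts among the 16, here and in every later setting, are therefore not counts of independent genes. The median log2 fold change of the 16 genes was -0.45 and that of all genes -0.05. Of the 16, 2 had an unadjusted p under 0.05. The call on mt-Nd6 lay at the threshold. Leaving out single libraries gave log2 fold changes between -1.52 and -0.80, and the call was lost in 33 of 43 such omissions, being kept without SZ-A 200 library 8 or 9, SZ-A 400 library 4 or 6, SZ-A 600 library 4, 7 or 8, HFD library 8 or 9, or SD library 4.

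Of the other genes, all but mt-Nd2 had negative fold changes, and none passed the test. In complex I, mt-Nd3 had -0.66 ± 0.32, mt-Nd5 -0.62 ± 0.34, mt-Nd4l -0.43 ± 0.39, mt-Nd4 -0.43 ± 0.34, mt-Nd1 -0.04 ± 0.26 and mt-Nd2 0.04 ± 0.34 on the log2 scale (SE). The complex IV genes mt-Co1, mt-Co2 and mt-Co3 had -0.49 ± 0.31, -0.46 ± 0.29 and -0.31 ± 0.33. mt-Cytb of complex III had -0.40 ± 0.37, and the ATP synthase genes mt-Atp6 and mt-Atp8 had -0.60 ± 0.39 and -0.27 ± 0.47. The rRNAs mt-Rnr1 and mt-Rnr2 had -0.50 ± 0.36 and -0.12 ± 0.31, and mt-Tp had -0.52 ± 0.36. The value for mt-Nd2 turned negative under other scalings, so its direction is not fixed.

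HFD library 8 decided how many genes passed. It was known to be extreme in these same genes, and leaving it out lowers both the mean and the spread of HFD. Counts and p-values without it, here and below, therefore depend on that choice and are no separate evidence. Without HFD library 8, 11 of the 16 mitochondrial genes were lower in HFD than in SD and 0 were higher, against 17.9% of all genes lower. The genes that did not pass were mt-Rnr1, mt-Rnr2, mt-Nd1, mt-Nd2 and mt-Co3. mt-Nd6 then had a log2 fold change of -1.52 ± 0.28 (SE), mt-Nd5 -1.19 ± 0.28, mt-Atp6 -1.16 ± 0.34, mt-Cytb -1.03 ± 0.29 and mt-Co1 -0.88 ± 0.26. mt-Nd5 averaged 2552 ± 1093 CPM in the 9 HFD libraries and 5735 ± 1219 CPM in the 7 SD libraries (SD of libraries), with 7 of 9 HFD libraries below the lowest SD library. mt-Co1 averaged 11077 ± 3710 CPM in the 9 HFD libraries and 20129 ± 5053 CPM in SD, and 5 of 9 lay below the lowest SD library.

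The diet difference passed the test within set 1 and did not within set 2. Within set 1, 15 of the 16 genes were lower in HFD (5 libraries) than in SD (2 libraries), against 18.8% of all genes, with a median log2 fold change of -1.48. Within set 2, which holds HFD library 8, 0 of 16 were lower, against 0.669% of all genes, and the median was 0.18. With HFD library 8 also left out of set 2, the median was -0.67, 15 of 16 fold changes were negative, 2 had an unadjusted p under 0.05 and 0 passed. A term for the difference between sets passed for 0 of all 20218 genes, the 16 included; the lowest adjusted p of the 16 was 0.544, and 13 had an unadjusted p under 0.05.

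SZ-A at 600 mg/kg/day was compared with HFD alone to show whether treatment bears on mitochondrial RNA under the same diet. mt-Nd6 and mt-Nd3, both complex I subunits, were higher with SZ-A 600. mt-Nd3 carries the uncertainty given above for genes with a near-identical nuclear copy. mt-Nd6 had 670 CPM in the lowest, 1169 CPM in the median and 2265 CPM in the highest SZ-A 600 library, against 253, 387 and 2612 CPM in HFD. mt-Nd3 had 10.2, 19.0 and 37.0 CPM in SZ-A 600, against 4.22, 7.67 and 37.4 CPM in HFD. All 9 SZ-A 600 libraries lay above the HFD median in both genes, and HFD library 8 lay above all 9 in both. The log2 fold changes were 1.05 ± 0.34 (SE, adjusted p = 0.0365) for mt-Nd6 and 1.01 ± 0.30 (adjusted p = 0.0274) for mt-Nd3 in edgeR's quasi-likelihood test. Of the 16 genes, 2 were higher and 0 lower, while 5.12% of all genes were higher and 6.47% lower. The count was 0 without SZ-A 600 library 4 or 7 or without HFD library 1, 3 or 6, 1 without SZ-A 600 library 3, 5 or 6 or HFD library 2, 4, 5 or 7, 3 without SZ-A 200 library 5 or SZ-A 400 library 1 or 6, and 4 without SZ-A 600 library 8.

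All 16 fold changes were positive with SZ-A 600, with a median of 0.69 on the log2 scale against 0.06 for all genes. Among those that did not pass, the values ran from 0.31 ± 0.32 (SE) for mt-Nd2 to 0.93 ± 0.37 for mt-Nd4l. mt-Co3 had 0.87 ± 0.31, mt-Co2 0.72 ± 0.27 and mt-Co1 0.68 ± 0.29, all of complex IV. mt-Nd5 had 0.78 ± 0.32, mt-Atp6 0.70 ± 0.37, mt-Cytb 0.53 ± 0.35 and mt-Rnr2 0.61 ± 0.29. Of the 16, 10 had an unadjusted p under 0.05.

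With HFD library 8 left out, all 16 genes were higher with SZ-A 600 than in HFD, against 9.72% of all genes, with a median log2 fold change of 1.17. This count rests on leaving out a library known to be extreme in these genes. mt-Nd6 then had 1.67 ± 0.27 (SE), mt-Nd4l 1.64 ± 0.29, mt-Nd3 1.47 ± 0.26, mt-Nd5 1.34 ± 0.26 and mt-Co1 1.07 ± 0.25. In mt-Nd6, 8 of 9 SZ-A 600 libraries lay above the highest of the 9 HFD libraries, and in mt-Co1 6 of 9 did. The smallest fold change was that of mt-Nd2, 0.83 ± 0.26. Within set 1, all 16 genes were higher with SZ-A 600, against 16.8% of all genes, and the median was 1.51. Within set 2, 0 of 16 were higher, against 0.0183% of all genes; the median was 0.07 and became 0.76 with HFD library 8 left out, where 0 still passed and 4 had an unadjusted p under 0.05.

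**Figure D3:**
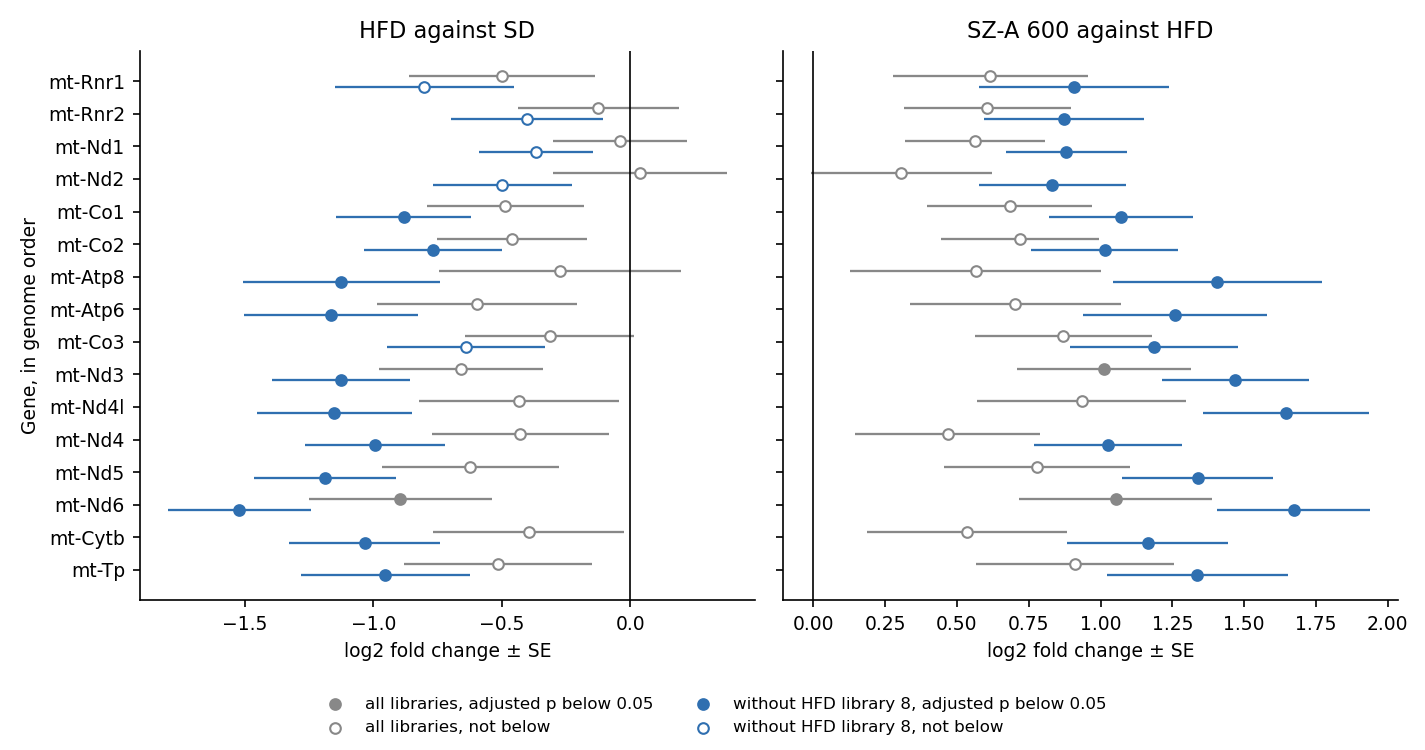
Log2 fold changes with their standard errors for the 16 tested mitochondrial genes, HFD against SD and SZ-A 600 against HFD, from all 43 libraries and without HFD library 8. The median over the genes for HFD against SD was -0.97 without that library and -0.45 with it, and for SZ-A 600 against HFD it was 1.17 without it and 0.69 with it.

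**Figure D4:**
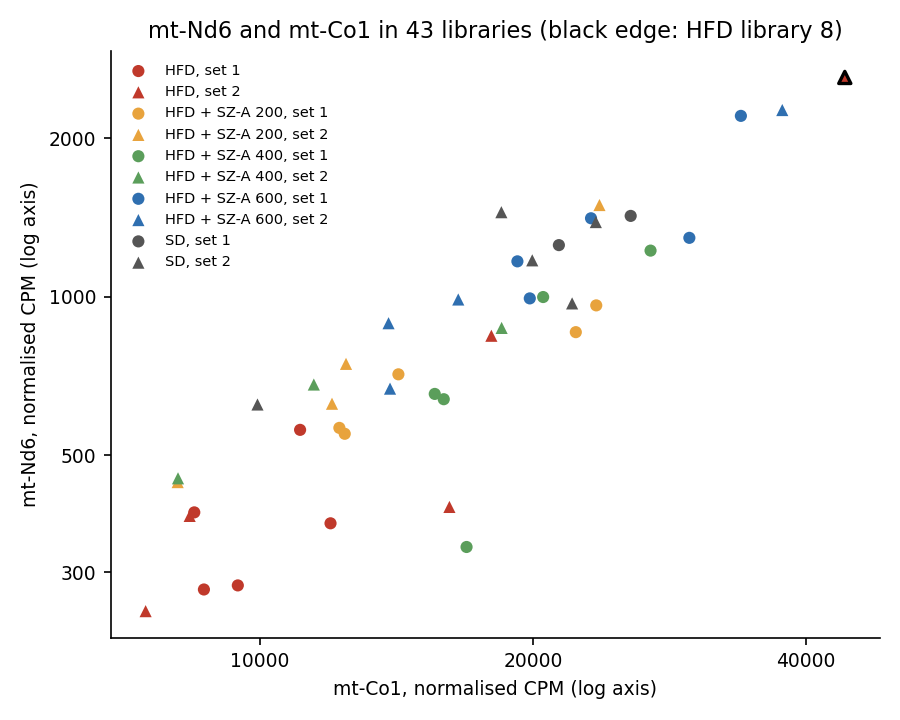
Normalised CPM of mt-Nd6 against that of mt-Co1 (log axes) in each library, coloured by group, with circles for library set 1 and triangles for set 2. HFD library 8 has a black edge. In mt-Nd6 the medians were 387 CPM in HFD, 1169 CPM in SZ-A 600 and 1255 CPM in SD, and HFD library 8 lay at 2612 CPM.

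At the lower doses no mitochondrial gene passed the test. With SZ-A 400, 0 of 16 genes were higher or lower than in HFD, against 2.46% of all genes higher and 0.406% lower, and none had an unadjusted p under 0.05. The median log2 fold change was 0.19, with mt-Co3 highest at 0.52 ± 0.32 (SE). With SZ-A 200, 0 of 16 were higher or lower, against 0.00989% of all genes higher and 0% lower, again with none at an unadjusted p under 0.05 and a median of 0.10. DESeq2's Wald test also called 0 of 16 at both doses, as did limma on log2(FPKM + 1). mt-Nd6 had medians of 713 CPM in SZ-A 200 and 668 CPM in SZ-A 400, and mt-Co1 had 12447 and 16425 CPM, against 387 and 10269 CPM in HFD.

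The library that decided the other comparisons mattered here as well. Without HFD library 8, 0 of 16 genes were higher with SZ-A 200, against 0.0198% of all genes, and 5 had an unadjusted p under 0.05. With SZ-A 400 1 gene was then higher, against 3.45% of all genes, and the median was 0.71. Within set 1, 2 of 16 genes were higher with SZ-A 200, against 2.5% of all genes, and 11 with SZ-A 400, against 3.27%. Within set 2, 0 of 16 were higher at either dose, against 0% of all genes with SZ-A 200 and 0.376% with SZ-A 400, and all 16 fold changes were negative at both doses. That sign depended on HFD library 8: with it left out of set 2, 14 of 16 were positive at both doses, with medians of 0.14 for SZ-A 200 and 0.0642 for SZ-A 400.

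Across 0, 200, 400 and 600 mg/kg/day the trend was upward in all 16 genes and passed for 4. Per step of 200 mg/kg/day the log2 change was 0.32 ± 0.10 (SE, adjusted p = 0.0245, edgeR) for mt-Nd3, 0.31 ± 0.11 (0.0454) for mt-Nd6, 0.29 ± 0.10 (0.0404) for mt-Co3 and 0.25 ± 0.09 (0.0462) for mt-Co2. mt-Nd3, mt-Co3 and mt-Co2 carry the uncertainty given above for genes with a near-identical nuclear copy. In all, 4 of 16 genes were higher with dose and 0 lower, against 6.82% of all genes higher and 7.86% lower. The count was 0 without SZ-A 600 library 7, and 1 without SZ-A 600 library 3, 4 or 5, SZ-A 400 library 1 or any of HFD libraries 1 to 7. It was 2 without SZ-A 200 library 2, 3, 4, 7 or 8, SZ-A 400 library 3 or 7, SZ-A 600 library 6 or SD library 5. With HFD library 8 left out, 15 of 16 were higher, all but mt-Rnr1, against 11.1% of all genes. The doses share their HFD controls with each other and with the SD comparison, so the comparisons are not independent.

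In ratios between mitochondrial genes of the same library, library size and scaling cancel. The ratio of mt-Nd6 to mt-Co1, genes on opposite strands, was lower in HFD than in SD and higher with SZ-A 600 than in HFD. It compares counts of captured RNA, and whether the counting used strand is not known here. Whether RNA of the plus strand is among the mt-Nd6 counts was not tested. mt-Nd6 counts were 4.00 ± 1.11% of mt-Co1 counts in HFD (SD, n = 10), 5.00 ± 0.84% in SZ-A 200 (n = 9), 4.48 ± 1.20% in SZ-A 400 (n = 8), 5.70 ± 0.77% in SZ-A 600 (n = 9) and 5.97 ± 1.02% in SD (n = 7). On the log2 scale the ratio was lower in HFD than in SD by -0.61 ± 0.17 (SE, two-sided exact permutation p = 0.00288, adjusted p = 0.0346 over 24 tests), and 5 of 10 HFD libraries lay below the lowest SD library. With SZ-A 600 it was 0.55 ± 0.15 above HFD (exact permutation p = 0.00232, adjusted p = 0.0346), and 6 of 9 libraries lay above the highest HFD library. In both comparisons the adjusted p was above 0.05 when HFD library 1, 3, 5 or 6 or SD library 1, 2, 3, 4, 5 or 7 was left out, with none of the 24 tests then called. The difference from HFD was 0.36 ± 0.16 with SZ-A 200 (exact permutation p = 0.0359, adjusted p = 0.172) and 0.15 ± 0.21 with SZ-A 400 (exact permutation p = 0.481, adjusted p = 0.679).

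The ratio of mt-Nd6 to mt-Co1 was called with and without HFD library 8 and had the same sign in both library sets. Without that library the differences were -0.68 ± 0.16 for HFD against SD and 0.62 ± 0.14 for SZ-A 600 against HFD, each with an adjusted p of 0.0105 by the exact permutation test. Within set 1 they were -0.63 and 0.59, and within set 2 -0.57 and 0.52. None of these within-set values passed, with exact permutation p adjusted to 0.327, 0.286, 0.327 and 0.327, and 5 libraries against 2 cannot give an exact p below 0.0952. Without the 4 libraries that carried RNA of other tissue the differences were -0.59 and 0.53, each with an adjusted p of 0.0559 by the exact permutation test.

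The ratio of mt-Cytb to mt-Nd1 compares the most distant and the nearest messenger along the plus-strand transcript. mt-Cytb counts were 161 ± 58.3% of mt-Nd1 counts in HFD (SD, n = 10) and 236 ± 26.2% in SD (n = 7). The log2 ratio was lower in HFD by -0.62 ± 0.18 (SE, exact permutation p = 0.00607, adjusted p = 0.0485), and 7 of 10 HFD libraries lay below the lowest SD library while HFD library 8 lay above the highest. The difference was -0.90 in set 1 and -0.32 in set 2. Without HFD library 8 it was -0.72 ± 0.15 (adjusted exact permutation p = 0.0126). The call was lost without the libraries that carried RNA of other tissue (-0.67, adjusted exact permutation p = 0.0559) and within set 1 (0.327) and set 2 (0.413). With SZ-A 600 the ratio was 183 ± 18.2%, a log2 difference from HFD of 0.25 ± 0.16 (exact permutation p = 0.136, adjusted p = 0.364).

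The other 4 ratios gave no difference past the threshold in any of their 16 tests. mt-Rnr2 counts were 205 ± 48.6% of mt-Rnr1 counts in HFD and 157 ± 28.7% in SD, a log2 difference of 0.37 ± 0.16 (exact permutation p = 0.0320, adjusted p = 0.172). mt-Nd6 to mt-Nd5, neighbours on opposite strands, differed by -0.31 ± 0.17 between HFD and SD (exact permutation p = 0.0884, adjusted p = 0.265) and by 0.29 ± 0.15 between SZ-A 600 and HFD (exact permutation p = 0.0604, adjusted p = 0.207). mt-Rnr2 to mt-Nd1, which lie on either side of a tRNA gene, differed by 0.06 ± 0.18 between HFD and SD (exact permutation p = 0.773, adjusted p = 0.884). mt-Co2 to mt-Co1 differed by 0.17 ± 0.13 between HFD and SD (exact permutation p = 0.208, adjusted p = 0.454), with the uncertainty in mt-Co2 given above.

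**Figure D5:**
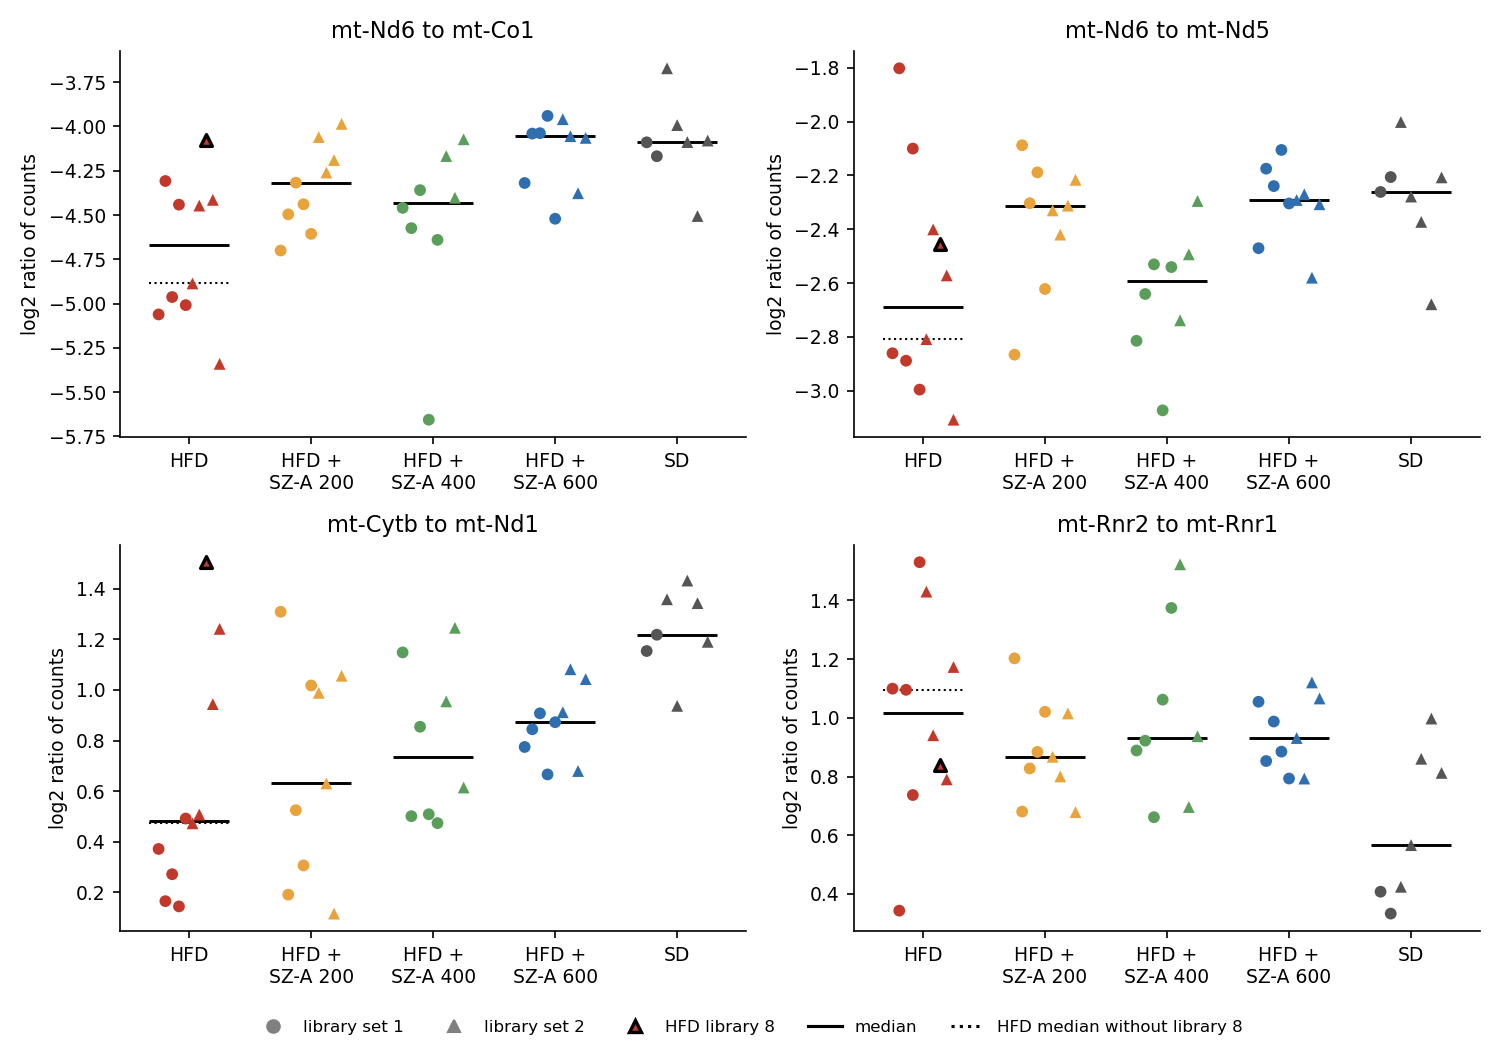
Log2 ratios of counts in each library, by group in the order HFD, SZ-A 200, 400, 600 and SD. The pairs are mt-Nd6 to mt-Co1, mt-Nd6 to mt-Nd5, mt-Cytb to mt-Nd1 and mt-Rnr2 to mt-Rnr1. The log2 ratio of mt-Nd6 to mt-Co1 averaged -4.70 in HFD, -4.15 in SZ-A 600 and -4.08 in SD, and that of mt-Cytb to mt-Nd1 averaged 0.61 in HFD, 0.86 in SZ-A 600 and 1.23 in SD.

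Across the 43 libraries the mitochondrial genes varied together. The log2 CPM of mt-Co1 was correlated with that of mt-Nd6 (Pearson r = 0.888, Spearman rho = 0.882), mt-Rnr2 (0.838 and 0.811) and mt-Atp6 (0.943 and 0.944). Each of the 3 relations had a permutation p of 1e-05, raw and adjusted, the smallest that 100000 permutations can give. Without the 2 libraries farthest from the median of mt-Co1, r was 0.860, 0.813 and 0.931. Within set 1 r was 0.902, 0.921 and 0.901, and within set 2 it was 0.912, 0.867 and 0.983. These values share library size and scaling, and libraries of all groups were pooled.

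Base composition sets mt-Nd6 apart from the other messengers. Read along its own strand, mt-Nd6 has 28.1% G and 5.97% C, whereas the other protein genes have 5.88 to 16.1% G and 22.1 to 30.0% C. The total of G and C is alike, 34.1% in mt-Nd6 and 31.9 to 41.1% in the rest. Several messengers also end inside a codon. The last 12 bases of mt-Cytb and mt-Nd4 show a lone T, in capitals, in place of a stop codon, and in vertebrate mitochondria the poly(A) tail completes such a codon to TAA.
mt-Cytb: aattatatccaT
mt-Nd4: gcctgacaataT

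Nuclear genes that act on mitochondrial DNA and RNA changed in small numbers with the diet. With 13.3% of all genes lower and 18.4% higher, nothing particular to these lists is read from the counts below. Of 11 transcription genes, 2 were lower in HFD than in SD and 0 higher: Tfb2m, an initiation factor of the mitochondrial RNA polymerase, with a log2 fold change of -0.62 ± 0.18 (SE), and Mterf3, which in mice restrains mitochondrial transcription, with -0.59 ± 0.17. Of 17 tested genes of RNA processing and stability, 3 were lower and 1 higher. The poly(A) polymerase gene Mtpap had -0.39 ± 0.13, Prorp, which cuts at the 5′ ends of tRNAs, -0.39 ± 0.14, Angel2 -0.30 ± 0.08, and Rexo2, an exonuclease for short RNAs, 0.67 ± 0.20. Tfam, which packages and helps transcribe mitochondrial DNA, had -0.03 ± 0.11, the polymerase gene Polrmt 0.04 ± 0.11 and Lrpprc, which stabilises mitochondrial messengers, -0.02 ± 0.13, and none of these passed.

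Genes of mitochondrial DNA upkeep and of biogenesis included larger changes. Of 15 replication and maintenance genes, 2 were lower in HFD than in SD and 2 higher, against the same 13.3% and 18.4% of all genes. Rrm2b, a ribonucleotide reductase subunit that supplies DNA precursors in resting cells, had -0.88 ± 0.16 and the helicase gene Twnk -0.45 ± 0.16, while the nuclease gene Exog had 0.86 ± 0.14 and Rnaseh1 0.31 ± 0.12. Of 10 biogenesis regulators, 2 were lower and 1 higher: Ppargc1a, a coactivator of mitochondrial gene programmes, with -2.02 ± 0.41, the deacetylase gene Sirt1 with -0.66 ± 0.10 and the nuclear receptor gene Esrra with 0.62 ± 0.10. Iars2, the mitochondrial isoleucyl-tRNA synthetase gene, was the single lower gene among 16 of translation, with -0.40 ± 0.12.

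Few nuclear subunits of the same complexes passed. Of 71 nuclear subunits of complexes I, III, IV and V, 2 were higher in HFD than in SD and 0 lower, against 18.4% and 13.3% of all genes, with a median log2 fold change of 0.14. Without HFD library 8, 1 was higher, the median was 0.0640 and that of the 36 complex I subunits -0.0119. The higher ones were Ndufs8 of complex I (0.57 ± 0.20) and Atp5g1 of ATP synthase (0.72 ± 0.26). Ndufa9 had 0.00 ± 0.20 and Cox4i1 0.11 ± 0.31. Of the 4 subunits of complex II, Sdha was lower, with -0.56 ± 0.17. The difference between the 2 kinds of gene was not tested. The macrophage list moved with the diet, 12 of 12 markers being higher in HFD with a median of 3.14, and 1 adipocyte marker of 10 was higher and 1 lower with a median of -0.53. Without HFD library 8, 4 adipocyte markers were lower. Fibroblast markers were higher in HFD for 4 of 5, with a median of 1.63, and duct epithelium markers lower for 6 of 9 tested, with a median of -4.72. The duct epithelium sum was 1431 CPM in SD library 4, which carried RNA of other tissue. The SD median was 12.3 CPM, and HFD libraries ran from 3.28 to 17.4 CPM.

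With SZ-A 600 the nuclear genes that passed were again few. Of 71 nuclear subunits 0 were higher or lower than in HFD, against 5.12% of all genes higher and 6.47% lower, with a median log2 fold change of 0.26; Ndufa9 had 0.25 ± 0.19 and Cox4i1 0.32 ± 0.29. Of 11 transcription genes, Mterf2 (0.69 ± 0.19) and Mterf4 (0.38 ± 0.12) were higher. Of 15 replication and maintenance genes, Rrm2b (0.78 ± 0.15) and the nuclease gene Endog (1.50 ± 0.34) were higher, and Twnk had 0.38 ± 0.15 without passing. Of 10 biogenesis regulators, Ppargc1a (1.19 ± 0.39) and Sirt1 (0.27 ± 0.09) were higher and Pprc1 (-0.60 ± 0.15) and Nrf1 (-0.32 ± 0.08) lower. Tfam had 0.21 ± 0.10, Polrmt -0.15 ± 0.10, Lrpprc -0.07 ± 0.12 and Polg, the gene of the replicative DNA polymerase, 0.01 ± 0.13, none of which passed. Macrophage markers were lower for 6 of 12, with a median of -1.38, and 1 of 10 adipocyte markers was higher, with a median of 0.69. With HFD library 8 left out, 6 of 10 were higher, with a median of 0.88. Of the other cell types, 3 of 5 fibroblast markers (median -1.89) and 4 of 6 B cell markers (median -2.62) were lower with SZ-A 600, and 6 of 9 tested duct epithelium markers were higher (median 4.16). The duct epithelium sum was 2327 CPM in SZ-A 600 library 6, which carried RNA of other tissue, against a group median of 12.6 CPM.

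At SZ-A 400, Rrm2b was higher (0.58 ± 0.15) and Pprc1 lower (-0.52 ± 0.15), and no other gene of these lists passed. At SZ-A 200 no gene of these lists passed. Leaving out HFD library 8 raised some counts with SZ-A 600: 4 of 11 transcription genes, 3 of 17 RNA processing genes and 6 of 15 replication and maintenance genes were then higher, against 9.72% of all genes. Of the 71 nuclear subunits 1 was then higher, Ndufv3 of complex I (0.69). Tfb2m (0.54), Mterf3 (0.52), Mtpap (0.43) and Prorp (0.38) were among the genes then higher with SZ-A 600.

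The chromosome 1 copies followed the mitochondrial genes in their counts. Several of them are identical to the mitochondrial genes over their whole length, and how reads matching several places were counted is not known. Their counts may therefore hold reads of the mitochondrial genes, and the values below are no separate result on nuclear genes. With all libraries 0 of 8 copies passed in any comparison. Without HFD library 8, 5 of 8 were lower in HFD than in SD, against 17.9% of all genes, with a median log2 fold change of -0.83. With SZ-A 600, 6 of 8 were then higher than in HFD, against 9.72% of all genes, with a median of 1.03. Gm28439, the copy of the start of mt-Nd4, then had -1.25 and 1.36 in these comparisons, and Gm10925, the copy of mt-Atp6, -1.22 and 1.17. Brown adipocyte markers were low throughout, with a summed level of 5 genes between 4.05 and 80.3 CPM, and 0 of 5 passed in HFD against SD, SZ-A 200 against HFD or SZ-A 600 against HFD. Cidea, a lipid droplet protein gene of this list, was higher with SZ-A 400 than in HFD (2.23 ± 0.47) and, without HFD library 8, lower in HFD than in SD (-1.27 ± 0.49). The summed level of 80.3 CPM was that of SZ-A 400 library 3, which carried RNA of other tissue, against a group median of 14.0 CPM. Whether the value for Cidea with SZ-A 400 rests on that library was not tested.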

How the data were processed

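Counts per gene were deposited by the authors for 43 poly(A)-selected, strand-specific, paired-end libraries of 150 base reads (RNA integrity number above 7, per the labels' protocols). The submitters' processing notes name the build mm10; aligner, counter and annotation: not given in the sources used here. Total counts per library were 32716294 to 44259619. The nuclear coordinates in the files were not used. FPKM values, also deposited by the authors, served in alternatives only.

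All 20218 genes kept by filterByExpr were tested in edgeR 4.0.16 (quasi-likelihood F test, robust, TMM factors, 43 libraries in 1 fit, Benjamini-Hochberg over all genes, threshold 0.05) in R 4.3.3. The dose trend is the log2 change per 200 mg/kg/day. Normalised CPM are counts scaled by the TMM-adjusted library size, and SE of a fold change comes from the fit. Ratios of counts were tested by two-sided exact permutation, adjusted over 24 tests, and relations by 100000 permutations (Python 3.11.15, scipy 1.17.1). Shares have exact 95% binomial intervals. The fits were also run on simulated counts with known changes. Genes were drawn there independently, with no library sets and no extreme library, so that run does not bear on these features.

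Named were all mitochondrial protein and rRNA genes, the most abundant tRNA genes with counts, up to 4 called members of each nuclear list with the smallest p, and 8 fixed nuclear genes; genes outside this rule were chosen after their values were seen. The genes, lists and tests were chosen with earlier results of these data known. Libraries with other tissue RNA had at least 100 genes at 10 CPM or more and over 20 times the median library (floor 0.05 CPM). Alternatives tried were other scalings, DESeq2 1.42.0, limma 3.58.1 on log2(FPKM + 1) and log2(FPKM + 0.1), other filters, a replicate block, the library sets, and leaving out libraries. Gene models and sequences came from GENCODE M21 (GRCm38).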

Additional observations from a re-analysis of the deposited data

Results flagged for a closer look

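Libraries far from the rest of their group were sought in 115 groups of values, each a gene, ratio or share in 1 group of libraries. A library was taken as apart when its gap to the nearest other library, divided by the group's range, exceeded Dixon's critical value. Chance alone passes that value in about 1 in 20 groups if values are normal and groups independent. CPM were used without logs and the genes varied together, so that rate is a rough guide here. There were 24 values apart, and 16 of them belonged to HFD library 8. That library was already known to be extreme in these genes, so its values here describe it and are no separate evidence.

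HFD library 8 was apart in its mitochondrial share (11.4% of counts) and in 15 of the 16 tested genes, mt-Rnr1 being the exception. Among complex I genes it had 9147 CPM of mt-Nd1, 12863 of mt-Nd2, 37.4 of mt-Nd3, 29.2 of mt-Nd4l, 14333 of mt-Nd4, 14325 of mt-Nd5 and 2612 of mt-Nd6. It had 25954 CPM of mt-Cytb, 44113 of mt-Co1, 220.4 of mt-Co2 and 131.6 of mt-Co3. It had 224.9 CPM of mt-Atp6, 1.91 of mt-Atp8, 1316 of mt-Rnr2 and 110.8 of mt-Tp. Each of these was the highest value in HFD.

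The other 8 values lay in 4 libraries. SZ-A 200 library 9 was high in mt-Nd6, at 1495 CPM. SZ-A 400 library 1 was high in mt-Atp6 (177 CPM), mt-Co3 (149.8 CPM) and mt-Cytb (12820 CPM). SZ-A 400 library 4 had the lowest log2 ratio of mt-Nd6 to mt-Co1 in its group, -5.66. SD library 4, which carried RNA of other tissue, was low in mt-Nd5 (3032 CPM), mt-Cytb (3944 CPM) and mitochondrial share (3.22%).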

How the results depend on the processing

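Counts are of the 16 tested genes, which varied together, and HFD library 8 decided most of these counts. For HFD against SD, 1 gene was lower with all libraries. The count was 0 without the low-count filter, in fits on the groups compared alone and within set 2 (with or without HFD library 8), 2 with library totals alone, 4 with limma on log2(FPKM + 1) or log2(FPKM + 0.1) and 15 within set 1. Settings chosen after seeing the data gave 13 (HFD library 8 left out, set as a term), 14 (without it and the other-tissue libraries) and 11 (without it, scaling outside the mitochondrial genome). In the same order these gave, for SZ-A 600, 16, 16 and 15, for the trend 15, 16 and 15, and for SZ-A 400 with the set term 3 and with the scaling 1. For SZ-A 600 the count of 2 became 0 in the groups alone and within set 2 (with or without HFD library 8), 1 without the filter, 4 with DESeq2, 5 with library totals, either limma fit or the other-tissue libraries left out, 8 with these left out and set as a term, and 16 in set 1. The trend's 4 became 0 within set 2 (both ways), 1 without the filter, 2 in the high-fat groups alone, 7 with library totals, 8 without other-tissue libraries with the set term and 16 in set 1. Within set 1, 2 genes were higher with SZ-A 200 and 11 with SZ-A 400. Ratio tests past the threshold, 3 in all, were 0 in each set and without the other-tissue libraries. The cause of these changes was not tested.

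Leaving out each library in turn gave 0 to 11 lower genes for HFD against SD, 0 to 1 higher for SZ-A 400, 0 to 16 for SZ-A 600, 0 to 15 for the trend and 0 to 5 ratio tests (5 without HFD library 2; 2 without HFD library 4 or 7 or SD library 6). Fold changes for HFD against SD then ranged from -0.37 to 0.0279 (mt-Nd1), -0.50 to 0.13 (mt-Nd2) and -0.40 to 0.14 (mt-Rnr2). Log2 ratio differences ranged for mt-Cytb to mt-Nd1 with SZ-A 200 from -0.0076 to 0.17, for mt-Nd6 to mt-Nd5 with SZ-A 400 from -0.0982 to 0.0469, for mt-Rnr2 to mt-Nd1 from -0.0550 to 0.20 (HFD against SD) and -0.0755 to 0.0740 (SZ-A 600), and for mt-Rnr2 to mt-Rnr1 from -0.0632 to 0.0695 (SZ-A 400) and -0.13 to 0.00405 (SZ-A 600).

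Fold changes of opposite sign arose chiefly within set 2. For HFD against SD these were 0.38 for mt-Rnr1, 0.58 for mt-Rnr2 (0.0837 with HFD library 8 left out), 0.27 for mt-Nd1, 0.0717 for mt-Co2, 0.38 for mt-Atp8, 0.0646 for mt-Atp6, 0.20 for mt-Co3, 0.33 for mt-Nd4l, 0.15 for mt-Nd4, 0.20 for mt-Cytb and 0.15 for mt-Tp. mt-Co1 and mt-Nd6 had -0.44 and -0.14 with SZ-A 200 and -0.59 and -0.45 with SZ-A 400. With SZ-A 600 mt-Rnr1 had -0.0651, mt-Rnr2 -0.0717, mt-Nd2 -0.36, mt-Atp8 -0.19, mt-Atp6 -0.11, mt-Nd4 -0.20 and mt-Cytb -0.18. mt-Nd2 for HFD against SD turned to -0.00236 with DESeq2 or its size factors, -0.0395 with upper-quartile factors, -0.0508 with library totals, -0.24 in the limma fits, -0.81 in set 1, -0.34 in set 2 without HFD library 8, and -0.11 without other-tissue libraries, with or without the set term. Without HFD library 8 it was -0.56 with the set term, -0.63 without other-tissue libraries and -0.49 with scaling outside the mitochondrial genome. Log2 ratio differences that turned were, within set 2, 0.16 (mt-Nd6 to mt-Nd5, SZ-A 400), -0.0559 (mt-Rnr2 to mt-Nd1, SZ-A 200) and -0.24 and -0.0051 (mt-Cytb to mt-Nd1, SZ-A 200 and SZ-A 600). Within set 1 they were -0.65 and 0.14 (mt-Rnr2 to mt-Nd1, HFD against SD and SZ-A 600) and -0.0812 and -0.0759 (mt-Co2 to mt-Co1, HFD against SD and SZ-A 400). Without other-tissue libraries they were -0.0177 (mt-Rnr2 to mt-Rnr1, SZ-A 400) and -0.00958 and 0.0740 (mt-Rnr2 to mt-Nd1, HFD against SD and SZ-A 600).

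With a replicate block, 2 genes were lower in HFD against SD, 4 were higher with SZ-A 600, and mt-Nd2 had -0.24 for HFD against SD. The numbers were not taken to pair the libraries, since only 48 of 79 same-numbered pairs had a correlation of deviations over 0.1 (median 0.20), against 238 of 658 other pairs (median -0.0351), and 10 of 43 libraries correlated best with their own number. As a share of summed FPKM, which weights short genes more, the median mitochondrial share was 6.37% in HFD, 8.32% in SZ-A 200, 9.06% in SZ-A 400, 11.9% in SZ-A 600 and 13.5% in SD. mt-Atp8 had 4 to 63 counts per library, and the other tested genes had 101 or more in every library. Counting error therefore weighs most on mt-Atp8. The reason for its low count was not tested.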
